A study of Oncorhynchus mykiss with 24 samples.

Results

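Immunoglobulin chains were represented by 4 oligos of a 44K salmonid array hybridised with rainbow trout (Oncorhynchus mykiss) liver RNA: C237R012 and C022R085, both described as the C region of the Ig mu chain in its membrane-bound form, and C113R056 and C025R106, both described as the Ig lambda chain C region. The oligos were taken as every spot whose description opens with "Ig" among the 486 spots that the study listed as different in its group comparisons, of which 436 carried a description other than unknown. They are 4 of the 43689 oligos on the array. Other immunoglobulin oligos may lie among those with no description here. C237R012 and C113R056 were listed for D against both wild groups, C022R085 for D relative to Wa only, and C025R106 for D relative to Ws only. The oligos were thus chosen by the Cy5 over Cy3 ratios of these same fish in the group comparisons, so the differences between groups are given as a description, with the standard error (SE) of each and no test. Oligos of one description may share a target transcript and are not independent measurements of it.

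The mu chain is the heavy chain of IgM, the main antibody class of teleost blood. Its membrane-bound form anchors IgM on the surface of B cells as part of the B-cell receptor, and its secreted form circulates as antibody. Light chains, to which lambda belongs, pair with heavy chains in both forms. B cells of fish arise mainly in the head kidney, and circulate in blood, so that liver tissue also holds lymphocytes and blood cells. In whole liver RNA, fewer cells of a type and less RNA per cell cannot be told apart.

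Livers of 24 fish in 4 groups of 6 were compared. Domesticated fish (D) came from 1 cross within a growth-selected farm strain. Wild by domesticated hybrids (W/D) had the same D mother and a Pennask Lake wild father. Age-matched wild fish (Wa) came from a Pennask Lake wild mother and that same wild father. Size-matched wild fish (Ws) were Pennask Lake fish of randomly mated crosses, reared a year earlier and therefore older. All fish were fed to satiation. The spread within D, W/D and Wa is thus a spread between siblings of 1 family each, and family and strain cannot be told apart. Ws were matched to D in body size, and both were heavier than W/D and Wa. Relative to D, Wa therefore differ in size as well as strain. Wa and Ws differ in age, rearing year, size and crosses together.

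Each fish was labelled with Cy5 and set against a Cy3-labelled pool of 6 size-matched wild fish; whether the pool held the same Ws fish is not given in the sources used here. The log2 ratio of fish over pool is the level reported, and 0 marks equal normalised signals of the 2 channels. Dyes were not swapped, so a difference between the dyes at an oligo would shift all its values alike and 0 need not mark equal mRNA. In addition, the groups held fixed places on each of 6 slides, so that place and group cannot be told apart. Median Cy5 signals of the arrays were 197 to 246 over local backgrounds of 123 to 134, and 33.6 to 46.2% of oligos lay above background by 2 SD of that background. By group, medians were 214 to 246 for D, 206 to 233 for W/D, 197 to 208.5 for Wa and 198 to 204 for Ws. Local backgrounds were 127 to 134 for D, 125 to 129.5 for W/D and 123 to 124 for Wa and Ws. Of the 5 hepatocyte oligos looked up (such as Apolipoprotein A-I-2, Plasminogen and Fibrinogen beta chain), 4 were above background on all 24 arrays. The titles of D replicates 4 and 6 carry the same fish code while their other labels differ. Over all oligos kept these arrays correlated at 0.604, within the range of 0.387 to 0.626 for pairs of D fish, and they were counted as 2 fish.

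Ig mu mRNA was lowest in D and highest in Wa, and Ig lambda mRNA was highest in D and lowest in Ws. With C237R012, the mu oligo with the largest differences, D fish had log2 ratios of -1.12, -1.46, -1.25, -0.95, 0.27 and -0.98. W/D fish had 1.03, 0.17, 0.54, -1.36, 0.40 and 0.16, Wa fish 2.20, 1.73, 0.18, 2.11, 0.10 and 1.24, and Ws fish 1.01, 1.31, 0.71, 0.04, 0.34 and 1.07. All but one D fish lay below every wild fish. The exception, D replicate 5, lay above 0 and within both wild ranges. Means were -0.92 ± 0.61 (D), 0.16 ± 0.81 (W/D), 1.26 ± 0.93 (Wa) and 0.75 ± 0.48 (Ws; SD, n = 6 fish each). The log2 fold change was -2.18 (SE 0.37) in D relative to Wa and -1.66 (SE 0.37) in D relative to Ws. These sizes depended on how the background was handled, from -2.46 (offset 10 in place of 50) to -1.87 (no correction) relative to Wa and from -1.93 to -1.36 relative to Ws, and 3 of the 6 D signals were not above background. Without D replicate 5 these log2 fold changes were -2.41 and -1.90, and the D range no longer reached either wild range.

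The other mu oligo, C022R085, gave the same order of D, W/D and Wa with smaller distances. Its log2 ratios were 0.16, -0.21, -0.60, -0.42, 0.28 and -0.20 in D. They were 0.80, 0.33, 1.55, -0.43, 0.22 and 1.18 in W/D, 1.38, 1.03, 1.18, 2.17, 1.84 and 0.32 in Wa, and 0.75, 0.67, 1.21, 0.00, 1.31 and 0.55 in Ws. D and Wa did not overlap, while the lowest Ws fish lay within the D range. D was lower relative to Wa by a log2 fold change of -1.48 (SE 0.30) and relative to Ws by -0.91 (SE 0.30). The latter is a 1.88-fold difference, short of the 2-fold that the study required. Its limma p, adjusted over all oligos tested, also exceeded 0.05. This p serves only the rule for calls given below and is no test of a chosen oligo.

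**Figure D1:**
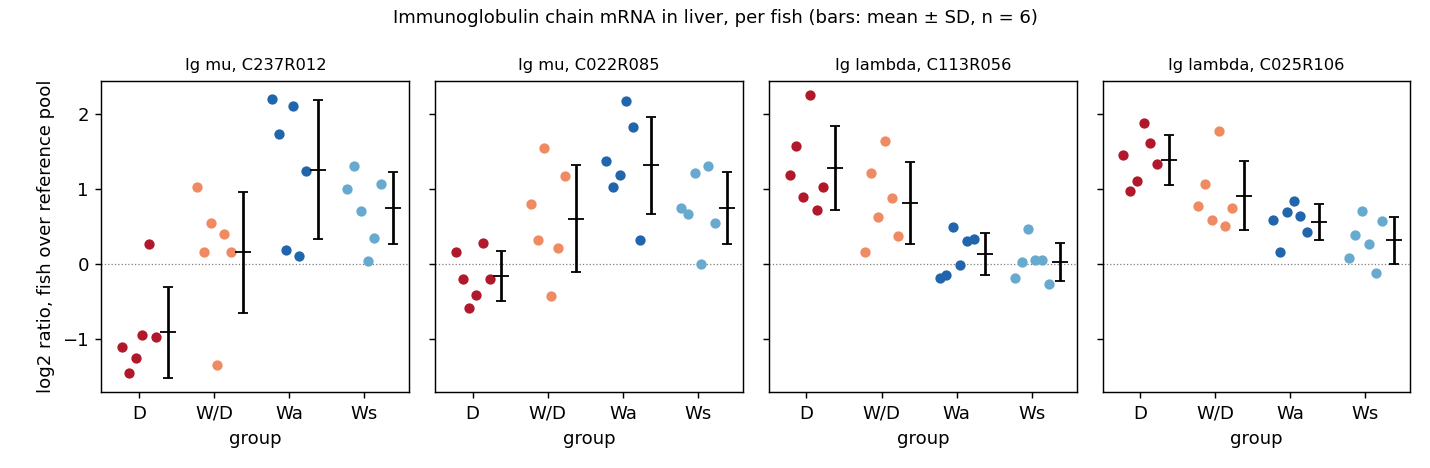
Log2 ratio of fish over reference pool (vertical axis) of each fish in D, W/D, Wa and Ws (6 points each, horizontal axis) for the 4 immunoglobulin oligos, with the mean and SD of each group as a bar. For C237R012, D replicate 5 (0.27) stands above the other D fish and W/D replicate 4 (-1.36) below the other hybrids, while the lambda oligos run in the opposite order of groups.

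The low mu levels in D lay close to the detection limit of the array. With C237R012 the Cy5 signals of D fish were 210, 269, 258, 269, 792 and 267, where the local background plus 2 SD stood at 211, 275, 263, 236, 300.4 and 215, so that 3 of 6 D arrays were above it. All arrays of W/D (270 to 870), Wa (534 to 3210) and Ws (515 to 927) were above it. C022R085 was above background on 3 of 6 D arrays, 5 of 6 W/D arrays, 6 of 6 Wa arrays and 6 of 6 Ws arrays, the W/D exception being replicate 4. With 3 SD required in place of 2, C237R012 stayed above background on 2 D arrays and C022R085 on 0 D arrays and 2 W/D arrays. Detection was judged in the Cy5 channel only. The Cy3 signal of the pool was 171 to 391 (median 297) for C022R085 and 300 to 660 (median 455) for C237R012. A low pool signal thus also enters the ratios of C022R085, in every group. Both mu oligos entered the comparison because every Wa and Ws array reached a signal of 300, which only 1 D array did for C237R012 and 2 D arrays did for C022R085. A group that did not admit these oligos had at least 1 array below 300, so their lower D signals are not independent of this rule.

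**Figure D2:**
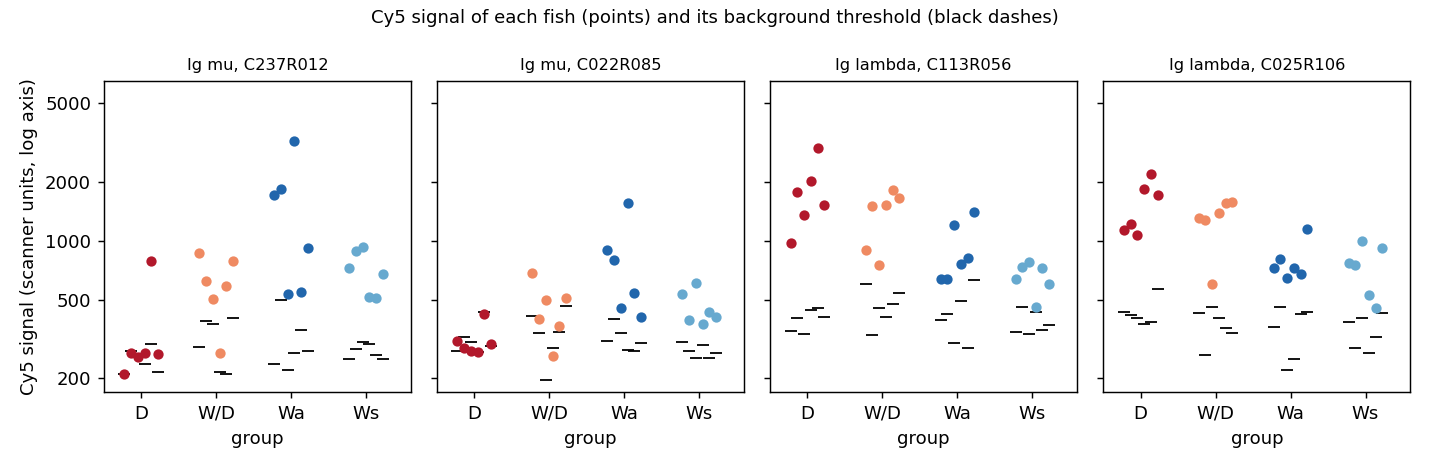
Cy5 signal in scanner units on a log axis (points) for each fish of D, W/D, Wa and Ws, with the local background plus 2 SD of the same spot as a black dash, for the 4 immunoglobulin oligos. The mu signals of 3 of 6 D fish sit at or under their dash for each mu oligo, while all 24 points of both lambda oligos sit above theirs.

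Ig lambda mRNA, the only light-chain mRNA described here, ran the other way. The log2 ratios of C113R056 were 1.18, 1.58, 0.90, 2.25, 0.72 and 1.02 in D fish. Those of W/D fish were 0.16, 1.21, 0.63, 1.64, 0.88 and 0.37. They were -0.19, -0.14, 0.49, -0.01, 0.30 and 0.34 in Wa and -0.19, 0.02, 0.47, 0.05, 0.05 and -0.27 in Ws. Every D fish was above every wild fish, by a log2 fold change of 1.15 (SE 0.25) relative to Wa and 1.25 (SE 0.25) relative to Ws.

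C025R106, the other lambda oligo, showed D fish at 1.45, 0.98, 1.10, 1.88, 1.62 and 1.33 and W/D fish at 0.78, 1.07, 0.59, 1.77, 0.51 and 0.75. Wa fish were at 0.59, 0.17, 0.69, 0.84, 0.64 and 0.42, and Ws fish at 0.08, 0.38, 0.71, 0.26, -0.13 and 0.57. Here too no wild fish reached the D range. The log2 fold change was 0.83 (SE 0.21) for D relative to Wa, a 1.78-fold difference short of 2-fold, and 1.08 (SE 0.21) for D relative to Ws, a 2.11-fold difference just past it. Both lambda oligos were above background on all 24 arrays.

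An oligo counted as called where its limma p, adjusted over all tested oligos, did not exceed 0.05 and its level differed at least 2-fold. By this rule 3 of the 4 immunoglobulin oligos passed in D relative to Wa (C025R106 being the exception), beside 3.58% of the 8679 oligos tested. In D relative to Ws 3 were called (C022R085 being the exception), beside 3.45%. Groups did not overlap for 3 oligos in D relative to Wa, beside 3.63% of the 7621 with values for all these fish. In D relative to Ws this held for 2, beside 3.43% of 7469 such oligos. These contrasts chose the oligos, so nothing is read from the counts. In W/D relative to Wa (0.933% of oligos called), W/D relative to Ws (2.06%), W/D relative to D (0.749%) and Wa relative to Ws (0.887%) none of the 4 was called. In these pairings the ranges of the groups overlapped for all 4 oligos. Of the oligos with values for every fish of a pairing, 1.25%, 2.02%, 1.28% and 1.61% did not overlap, in the same order. The pairings of D with Wa and with Ws share the D fish and are not independent.

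Calls near the 2-fold line changed with single settings. In the contrasts that chose the oligos, a call or its loss is a description and no test. C113R056 in D relative to Wa was lost without D replicate 4 (0.95) and without replicate 4 of every group (0.92). It was also lost with arrays centred on the median in place of loess (1.00, just under 1) and with the Cy5 channel alone (0.88). C025R106 in D relative to Ws was lost without D replicate 4 (0.98), without Ws replicate 5 (0.99), with no background correction (0.98) and with the Cy5 channel alone (0.92). Leaving out replicate 4 (0.97) or replicate 5 (0.95) of every group also lost it. C022R085 in D relative to Ws gained a call without Ws replicate 4 (-1.06), without replicate 4 of every group (-1.01) and with the Cy5 channel alone (-1.01). The directions of all 4 oligos in both contrasts were the same in every alternative run.

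**Figure D3:**
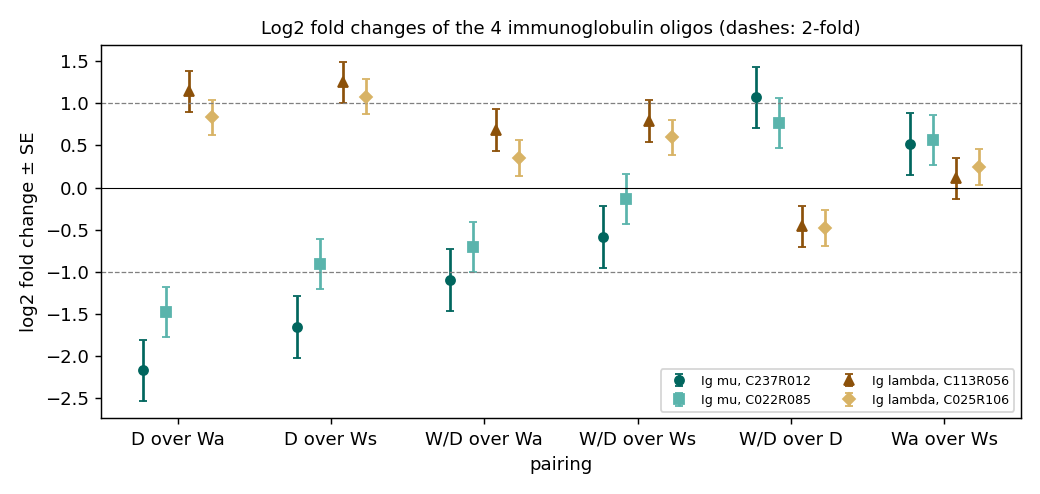
Log2 fold change with its SE (vertical axis) of the 4 immunoglobulin oligos in the 6 pairings of groups (horizontal axis), the first-named group over the second, with dashes at a 2-fold difference. Mu oligos sit below 0 and lambda oligos above 0 in the 4 pairings of D or W/D over a wild group, and all 4 sit on the opposite side of 0 in W/D over D.

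Mean levels of hybrids stood between those of the parental groups for all 4 oligos. Choosing oligos for a difference between D and wild fish favours such positions, which are given as a description. No oligo was called in any pairing of W/D, so these positions are of group means. Relative to D, the W/D log2 fold changes were 1.07 (SE 0.37) and 0.77 (SE 0.30) for the mu oligos C237R012 and C022R085, and -0.46 (SE 0.25) and -0.48 (SE 0.21) for the lambda oligos C113R056 and C025R106. Relative to Wa, the W/D level was -1.10 and -0.71 for the mu oligos and 0.68 and 0.35 for the lambda oligos. Relative to Ws, it was -0.59 and -0.14 for the mu oligos and 0.79 and 0.60 for the lambda oligos. Set against the midpoint of D and Wa, W/D deviated by -0.02 (SE 0.32), 0.03 (SE 0.26), 0.11 (SE 0.21) and -0.07 (SE 0.18) for C237R012, C022R085, C113R056 and C025R106, each less than its SE. Against the midpoint of D and Ws the deviations were 0.24, 0.31, 0.17 and 0.06, of which only that of C022R085 exceeded its SE.

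W/D replicate 4 stood apart from the other hybrids in C237R012. It was the lowest hybrid in both mu oligos and the highest in both lambda oligos. Its values of -1.36, -0.43, 1.64 and 1.77 for C237R012, C022R085, C113R056 and C025R106 all lay within the range of D fish. Without it, W/D relative to Wa moved to -0.80 and -0.50 for the mu oligos and to 0.52 and 0.18 for the lambda oligos, and C022R085 in W/D relative to Ws was 0.07 in place of -0.14. The mean of the mu log2 ratios minus the mean of the lambda log2 ratios, each relative to the pool, was -2.60 in this fish, against -0.90 to 0.45 in the other hybrids. In the other groups that difference spanned -2.75 to -0.89 in D, 0.09 to 1.72 in Wa and -0.14 to 0.93 in Ws. The oligos were chosen for differences between D and wild fish. The distance of D from both wild groups in this value follows in part from that choice and is a description only.

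Wa and Ws, which differ in age, rearing year, body size and crosses, were closer to each other than either was to D in all 4 oligos. The study's lists of D against wild fish supplied these oligos, which favours large distances from D. This closeness of Wa and Ws is therefore a description and no finding about the wild groups. Wa relative to Ws gave 0.52 (SE 0.37) and 0.57 (SE 0.30) for the mu oligos and 0.11 (SE 0.25) and 0.25 (SE 0.21) for the lambda oligos. In order of mean level, the neighbours W/D and Ws in C022R085 and Wa and Ws in C113R056 differed by less than their SE. For C237R012 the 6 Ws fish all lay above 0 (0.04 to 1.31), although the pool was also made from size-matched wild fish.

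C237R012 varied between fish of a group more than most tested oligos. Its SD among fish of a group was 0.61 for D, 0.81 for W/D, 0.93 for Wa and 0.48 for Ws, where the median SD of the tested oligos was 0.38 to 0.39. It stood at the 88.7th percentile of those SDs for D, the 96.7th for W/D, the 98.9th for Wa and the 71.9th for Ws. The SDs of D and W/D take in D replicate 5 and W/D replicate 4, which stood apart. The other D fish spanned -1.46 to -0.95, most of them with signals near background, and the other hybrids spanned 0.16 to 1.03. C022R085 stood at the 36.5th in D, the 94.2nd in W/D, the 92.0th in Wa and the 71.6th in Ws. The lambda oligos were less variable in wild fish, between the 13.7th and 31.7th percentile in Wa and Ws. In Wa, 4 fish had C237R012 between 1.24 and 2.20, and the other two had 0.10 and 0.18.

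The Cy3 channel held the same pool on every array, so the spread of its raw signal at a spot is technical. Normalisation used both channels of an array, so a normalised Cy3 level may also carry part of the fish signal. For C237R012 mean normalised log2 Cy3 levels were 8.465 (D), 8.592 (W/D), 8.836 (Wa) and 8.567 (Ws), beside Cy5 levels of 7.55, 8.748, 10.096 and 9.312. After normalisation of the channels, the pooled SD within groups of the log2 Cy5 level was 0.74 for C237R012 and 0.58 for C022R085, over an SD within groups of the Cy3 level of 0.33 and 0.42. For the lambda oligos the spread of the fish (0.39 for C113R056 and 0.36 for C025R106) was close to that of the pool (0.39 and 0.34). The technical spread of the Cy5 channel itself was not measured, and how much of the lambda spread lies between fish was not tested.

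How 2 oligos vary together among fish of a group had no part in choosing them, although the spread within groups entered the study's test of each oligo. Of the 6 possible pairs, 3 were tested for varying together within groups (log2 ratios minus the group mean, n = 24 fish, two-sided permutation of fish within groups, adjusted over the 3 pairs). Fish with more C237R012 had less C113R056 (Pearson r = -0.61, permutation p = 0.0020, adjusted p = 0.0060; Spearman rho = -0.60, permutation p = 0.00256, adjusted p = 0.00768). As a description, r within the 6 fish of a group was -0.41 for D, -0.85 for W/D, -0.87 for Wa and -0.32 for Ws. The other mu and lambda pairs, which were not tested, had r = -0.38 (C022R085 with C113R056), -0.19 (C237R012 with C025R106) and -0.16 (C022R085 with C025R106). The tested pair of mu and lambda thus had the strongest r of its kind, joined the oligos listed against both wild groups, and is no test of mu against lambda in general. Its adjusted p covers only the 3 tested pairs. For the tested pair, leaving out W/D replicate 4 and D replicate 5, the fish farthest out in C237R012, gave r = -0.40, which no longer passed the adjusted threshold (permutation p = 0.0272, adjusted p = 0.0816). Leaving out W/D replicate 4 alone was enough to lose it (r = -0.50, adjusted p = 0.0531), as was leaving out replicate 1 of every group (r = -0.547, adjusted p = 0.0562). The association also missed the threshold with median centring (r = -0.30, adjusted p = 0.16), with the log2 ratios deposited by the authors (r = -0.41, adjusted p = 0.065) and with the Cy5 channel alone (r = -0.42, adjusted p = 0.15), although r was below 0 in all 40 alternatives.

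The 2 lambda oligos passed narrowly (r = 0.51, permutation p = 0.031, adjusted p = 0.046; rho = 0.33, p = 0.16, adjusted p = 0.23). The call was lost in 22 of 40 alternatives, among them the replicate block (r = 0.401, adjusted p = 0.0793). Leaving out D replicate 4 and W/D replicate 4 gave r = 0.08, so the relation rested on those fish. The 2 mu oligos did not pass (r = 0.37, permutation p = 0.13, adjusted p = 0.13; rho = 0.28, p = 0.23, adjusted p = 0.23), and r was 0.09 without W/D replicate 4 and D replicate 5. On the Cy5 channel alone the mu pair had r = 0.73 (permutation p = 0.00202, adjusted p = 0.00606). It also passed without Wa replicate 5 (r = 0.509, permutation p = 0.0344, adjusted p = 0.0344). The same held without replicate 5 of every group (r = 0.578, permutation p = 0.0471, adjusted p = 0.0471). Without replicate 4 of every group r was -0.078, so the relation hung on single fish and settings.

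**Figure D4:**
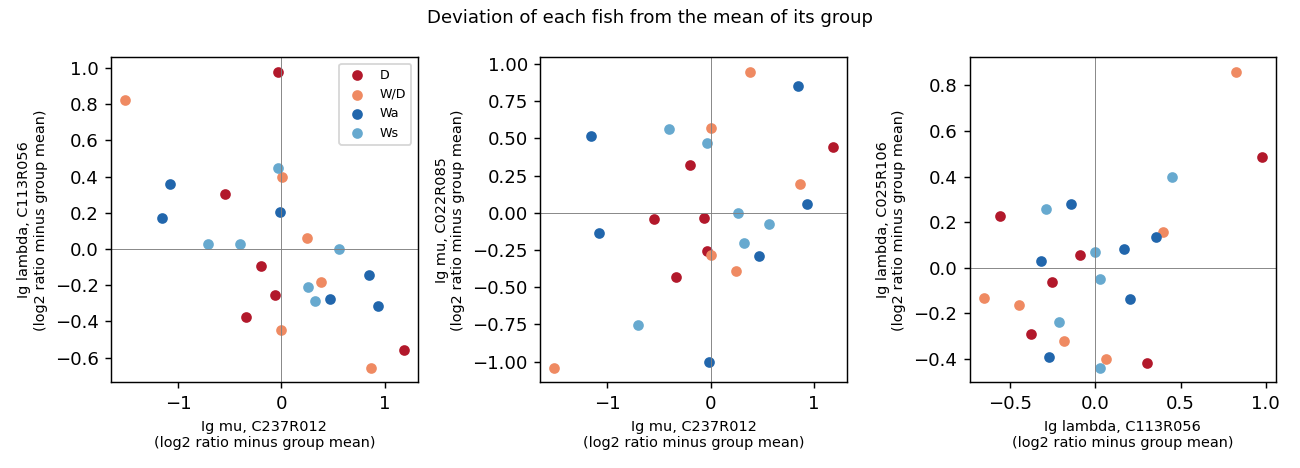
Deviation of each fish from the mean log2 ratio of its group for C237R012 against C113R056, C237R012 against C022R085, and C113R056 against C025R106, with fish coloured by group (D, W/D, Wa and Ws, 6 each). The first panel slopes downward (r = -0.61), with W/D replicate 4 at its upper left end and D replicate 5 at its lower right.

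Among 6982 other tested oligos with values in all 24 fish, the log2 ratios most like C237R012 over the fish were those of C210R118 (60S ribosomal protein L37a, a component of the large ribosomal subunit, r = 0.84), C204R011 (Methyltransferase-like protein 4, r = 0.83) and C227R073 (Lipoprotein lipase precursor, an enzyme that hydrolyses triglycerides of circulating lipoproteins, r = 0.82). Mean log2 ratios of C204R011 were -2.02 (D), -0.71 (W/D), -0.14 (Wa) and 0.02 (Ws), and those of C227R073 were -2.04, -0.86, -0.30 and -0.31 in the same groups. With group means removed, the closest described spots were C245R007 (r = 0.65) and C210R118 (r = 0.64), both 60S ribosomal protein L37a, and C204R011 (r = 0.61). The closest of all were C067R151 (r = 0.70) and C061R049 (r = 0.65), which have no description here. The fish share array, pool and group in these values, so r is given as a description.

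For C113R056, the closest oligos were C113R015 (no description here, r = 0.84), the other lambda oligo C025R106 (r = 0.81), C055R039 (Solute carrier family 28 member 3, a nucleoside transporter, r = 0.78) and, next among described spots, C235R044 (Ras-related protein Rab-32, a small GTPase, r = 0.77). With group means removed, they were C071R103 (r = 0.73), C149R099 (r = 0.71) and C258R067 (r = 0.67), none of them described here, and among described spots C025R106 (r = 0.51), C058R109 (Cytosolic sulfotransferase 2, r = 0.50) and C235R044 (r = 0.49). At the other end, none of the other 6981 oligos had a lower r with C113R056 than C237R012 did (r = -0.81). With group means removed, 7 of them were lower (r = -0.61). From the side of C237R012, 1 oligo had a lower r than C113R056 did, and 17 with group means removed. The r of -0.81 takes in the opposite group differences for which C237R012 and C113R056 were chosen, so its rank follows in part from that choice.

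Few other lymphocyte oligos were described. The oligo for B-cell linker protein (C201R096), an adaptor that passes the signal of the B-cell receptor on inside the cell, had log2 ratios of 1.94, 0.83, 2.49, 0.78, 1.35 and 1.10 in D. W/D fish had 1.12, 0.24, 1.09, 1.19, 0.38 and 1.04, Wa fish -0.37, 1.12, -0.10, -0.35, 1.02 and 0.39, and Ws fish 0.92, 0.42, 0.40, -0.04, 0.45 and 0.23. D and each wild group overlapped in part, and the oligo was called higher in D relative to Wa (log2 fold change 1.13, SE 0.29) and relative to Ws (1.02, SE 0.29). The p100 subunit of Nuclear factor NF-kappa-B (C004R140), a transcription factor precursor of lymphocytes and other cells, had 0.52 (SE 0.34) and 0.98 (SE 0.34) in the same pairings and was not called. Cytotoxic and regulatory T-cell molecule (C217R051), a receptor of activated T and natural killer cells, had -0.04 (SE 0.30) and -0.19 (SE 0.30) and was not called. Antigen peptide transporter 1, part of the transport of peptides for presentation to T cells, did not reach the signal required for the comparison. It was above background on 1 D array, 2 W/D arrays, 4 Wa arrays and 4 Ws arrays. Of the 3 kept lymphocyte oligos 1 was thus called higher and 0 lower in each pairing, with medians of 0.52 and 0.98 beside -0.02 and -0.01 over all oligos tested. Of all oligos tested, 2.00% were called higher and 1.58% lower in D relative to Wa, and 2.43% higher and 1.01% lower in D relative to Ws, and the counts of this and the following lists stand beside those shares. As for all lists here, descriptions exist only for spots that the study listed on these fish, so such counts are no independent evidence of a direction.

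Immunoglobulin chains are folded and assembled in the endoplasmic reticulum. Of 10 kept oligos for its chaperones and quality control 2 were called higher and 1 lower in D relative to Wa. Derlin-1 (C141R097), part of the export of misfolded proteins, was higher by 1.09 (SE 0.24) and Protein canopy homolog 2 (C178R018) by 1.30 (SE 0.33), and Calmegin (C107R055), a lectin chaperone, was lower (-1.18, SE 0.26). In D relative to Ws, 4 were called higher and 0 lower. Complement C3, the central protein of the complement cascade and a secretory product of hepatocytes, was called higher in D relative to Wa (log2 fold changes of 2.93, 2.58 and 2.53 for C262R149, C097R144 and C138R093), and of the 6 complement oligos 4 were called higher and 0 lower. In D relative to Ws only 1 complement oligo was called higher and 1 lower, C262R149 at 1.93.

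Blood and muscle mRNAs also differed between the groups. All 35 hemoglobin oligos were above background on at least some arrays, and their mean log2 ratio spanned 0.00 to 1.79 for D, -0.36 to 0.57 for W/D, -0.64 to -0.10 for Wa and -1.11 to -0.15 for Ws. Their summed signal over background was 614000 to 1140000 for D, 424000 to 935000 for W/D, 399000 to 656000 for Wa and 256000 to 496000 for Ws. Of 19 kept hemoglobin oligos 9 were called higher and 1 lower in D relative to Wa, and 14 higher and 0 lower in D relative to Ws, beside 2.00%, 1.58%, 2.43% and 1.01% of all oligos tested in the same order. Within groups, the hemoglobin mean of a fish had correlations of -0.15, -0.16, 0.02 and -0.11 with C237R012, C022R085, C113R056 and C025R106. For the lymphocyte list these were -0.18, -0.23, -0.20 and -0.16 with the same oligos. Of the 7 muscle oligos 4 were called higher and 1 lower in D relative to Wa, with log2 fold changes of -1.11 to 1.49, and 0 higher and 1 lower in D relative to Ws. The 3 with the largest size in D relative to Wa, all actin, C041R095, C124R022 and C253R126, had 1.49, 1.29 and 1.28 in that pairing and -0.75, -0.72 and -0.86 in D relative to Ws. The part of blood or muscle content in the immunoglobulin differences was not tested beyond these values.

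**Figure D5:**
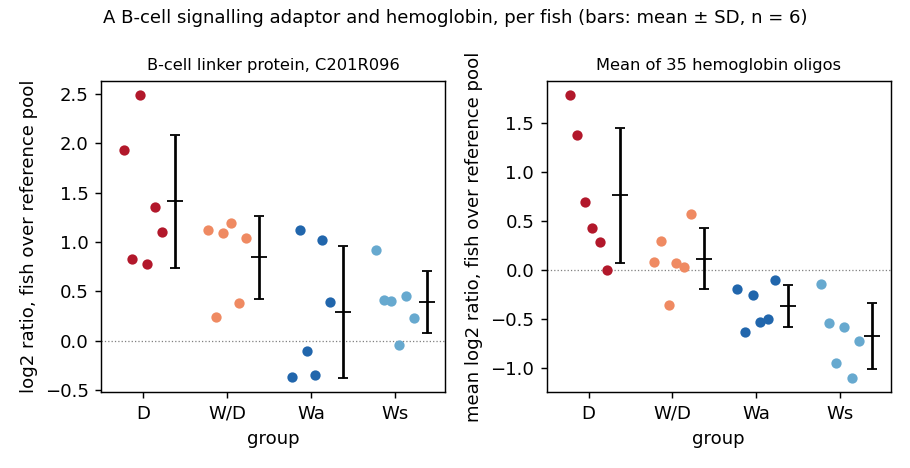
Log2 ratio of fish over pool for B-cell linker protein (left) and mean log2 ratio of 35 hemoglobin oligos (right) in each fish of D, W/D, Wa and Ws (6 points each), with the mean and SD of each group. Both run highest in D, where the hemoglobin mean spans 0.00 to 1.79, and no Wa or Ws fish exceeds -0.10 for hemoglobin.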

How the data were processed

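The authors scanned 24 two-colour arrays and deposited, per spot, Cy5 and Cy3 intensity values with local backgrounds and quality flags, beside a normalised log2 ratio, which the authors derived by log2 transformation, LOWESS normalisation and centring on a baseline in GeneSpring. The study's annotation was used only to find and name spots. Ratios were recomputed in R 4.3.3 with limma 3.58.1: normexp background correction (offset 50), loess within arrays, 1531 control spots left out, and spots with flag 3 set to missing. Flag 3 fell on brighter spots (median Cy5 3157, against 246 without a flag), and on none of the 4 immunoglobulin oligos. Readings with flag 2 were kept in the fit but did not count as unflagged in the signal filter. None of them fell on the 4 immunoglobulin oligos. Oligos were kept where Cy5 reached 300 without a flag on every array of 1 or more groups (8679 tested, against 9307 with the flag disregarded). Bright oligos such as hemoglobin lose values to the flag, so the hemoglobin mean per fish disregards it. All 24 fish entered one limma fit without covariates, with Benjamini-Hochberg adjustment within a pairing, and a call needed an adjusted p up to 0.05 together with a 2-fold difference, the study's thresholds. Correlations used 100000 resamples. The fit was tested on simulated data. The number of arrays limits the precision. Named oligos are all 4 immunoglobulin oligos, the 3 most similar oligos (and 3 most similar described ones) to C237R012 and C113R056, and up to 3 per list with the largest difference in D relative to Wa; the lists are lymphocyte, complement, hemoglobin, endoplasmic reticulum, hepatocyte and muscle. Of the 5 hepatocyte oligos 4 were called higher and 1 lower in D relative to Wa, and 2 higher and 1 lower in D relative to Ws. Of all oligos tested, 2.00%, 1.58%, 2.43% and 1.01% were called in the same order. Members and lists were chosen with earlier results of these data known.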

Additional observations from a re-analysis of the deposited data

Results flagged for a closer look

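In 2 of 16 combinations of oligo and group, 1 fish lay apart from the other fish by more than Dixon's critical value for 6 fish allows, where chance gives about 1 in 20. Both concern C237R012. D replicate 5 had a log2 ratio of 0.27, with the nearest D fish at -0.95 (gap 0.707 of the range). W/D replicate 4 had -1.36, with the nearest hybrid at 0.16 (gap 0.635 of the range).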

How the results depend on the processing

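The log2 fold changes of the 4 oligos in the 6 pairings moved by less than 1 SD of the oligo in every alternative, and the deposited log2 ratios correlated with the recomputed ones at 0.955 to 0.988 over the fish. For C237R012 in D relative to Wa the log2 fold change ranged from -2.64 (without replicate 5) to -1.87 (no background correction). The count of called oligos in D relative to Wa was 3, and 1 where a signal of at least 300 was required on all 24 arrays, since both mu oligos are then not tested. Leaving out fish gave counts of 2 to 3 in D relative to Wa and 2 to 4 in D relative to Ws. With the methods' ANOVA and Tukey test both counts were 3. For C237R012 with C113R056, r was -0.61, -0.303 with median centring, -0.408 with the deposited ratios, -0.417 on Cy5 alone, -0.400 without W/D replicate 4 and D replicate 5 together, and -0.727 to -0.496 on leaving out single fish or replicate numbers. For C113R056 with C025R106, r was 0.51, 0.484 with no background correction, 0.391 with the deposited ratios, 0.303 on Cy5 alone, 0.442 with D replicates 4 and 6 counted as 1 fish, 0.435 without W/D replicate 4 and D replicate 5, and 0.119 to 0.68 on leaving out fish. For C237R012 with C022R085, r was 0.37, 0.728 on Cy5 alone, and -0.078 (without replicate 4) to 0.578 (without replicate 5). Leaving out single fish and the pair of fish in the correlations was chosen after seeing the data. The cause of these shifts was not tested. Fish of a replicate number carry array codes with the same leading digits, which were read as the slide although the labels do not say so, and such fish deviated together only weakly (mean r 0.009 to 0.067 over pairings). The replicate block left the counts at 3 and 3 and the correlation of C237R012 with C113R056 past the threshold, while C113R056 with C025R106 had r = 0.401 (adjusted p = 0.079). Signal over background limits what can be said of mu levels in D.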
